A study of Mus musculus with 12 samples.

Results

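The 10 genes described here are cyclins and the cyclin-dependent kinases (CDKs) they activate: Ccna2, Ccnb1, Ccnb2, Ccnd1, Ccnd3, Ccne1, Ccne2, Cdk1, Cdk2 and Cdk4. They were followed through every probe set (a group of short probes to a transcript on an Affymetrix array) that the array's annotation pairs with exactly 1 of these genes, which gave 18 of 45037 probe sets and 9 of the 10 genes. The annotation table used here pairs no probe set with Ccnb1, so that gene is not analysed here. One of the 2 Cdk2 probe sets (1447617_at) stayed between 0.880 and 18.6 signal units on the 12 arrays and was too dim to test, which left 17 probe sets.

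The study asked how the pattern of calcium signals in the fertilized mouse egg relates to gene expression in the blastocyst, the hollow embryo of the days before implantation. Total RNA of mouse blastocysts was hybridized to 12 arrays in 3 groups of 4: Ca-free (labelled as cultured in Ca2+ free medium), 20 pulses (labelled as treated by 20 Ca2+ pulses) and control (labelled as normal blastocysts). The labels do not say at which stage the medium or the pulses were applied. The sources used here do not give the strain, the age and number of embryos per array, or the handling of controls, and they do not say that replicates were separate collections of embryos. P-values therefore measure the spread among these 12 arrays, which may be technical.

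Cyclins are proteins that accumulate and are destroyed in the course of the cell cycle, and each CDK is active only when bound to one. D-type cyclins with Cdk4 act early in G1 and phosphorylate the retinoblastoma protein, E-type cyclins with Cdk2 act at entry into S phase, cyclin A acts in S phase and G2, and B-type cyclins with Cdk1 drive mitosis. In the cleavage divisions that form the blastocyst the G1 phase is short, and cyclin protein also depends on translation and on ubiquitin-dependent destruction, which RNA arrays do not measure.

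In Ca-free blastocysts, probe sets of Cdk4, Ccne1 and Ccna2 were higher than in control, and probe sets of Ccnd1, Ccnd3 and Cdk2 were lower. Of the 17 tested probe sets, 4 rose and 3 fell (limma, Benjamini-Hochberg adjusted p under 0.05 over all 27808 tested probe sets). Over all tested probe sets 40.3% were called in this comparison, 10.6% higher and 29.7% lower, so the members' total of 7 of 17 lay near the background. On each of these 7 the Ca-free and control arrays did not overlap, which held for 36.2% of all tested probe sets. The median log2 change was 0.07 over the members and -0.18 over all tested probe sets. After 20 pulses 0 of the 17 passed against control, where 1.48% of all tested probe sets did (1.10% higher and 0.374% lower). At an unadjusted p under 0.05 there were 2 of the 17, beside 4391 of all 27808. The Ca-free and 20 pulses comparisons share the control arrays. Signals below are the authors' deposited intensities rescaled to a common trimmed mean of 500, log2 changes are of signal plus 32, and array values are given in the order of replicates 1 to 4.

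The Ca-free arrays stood apart as arrays. Their deposited median intensity was 38.3 to 39.2, against 47.3 to 53.7 for 20 pulses and 49.4 to 53.0 for control, at an equal trimmed mean. The change against control depended on brightness over all tested probe sets: with probe sets ranked in 10 equal classes by mean signal, class 10 the brightest, the median was -0.39 in class 2, -0.24 in class 6 and 0.12 in class 10. Summed signals of markers of other cell types were low and mostly lowest in Ca-free, with oviduct and uterine markers at 675 to 949 in Ca-free, 1143 to 1349 after 20 pulses and 1367 to 1525 in control, and cumulus markers, of which 1 of 6 reached 100, at 343 to 413 in Ca-free, 450.0 to 618 after 20 pulses and 539 to 715 in control. Blood markers summed to 528 to 575 in Ca-free, 729.6 to 893 after 20 pulses and 605 to 878 in control, and oocyte markers to 2002 to 2613, 1952 to 2405 and 2271 to 2713 in those groups, with Mos, an oocyte kinase, at a mean of 11.8. The 12 blastocyst markers, including Cdx2, Pou5f1 and Sox17, were all at 100 or more, and their sum was 58162 to 60339 in Ca-free, 57398 to 58887 after 20 pulses and 58059 to 60032 in control. Krt8 and Krt18 made up the largest part of that sum, and single markers moved apart: Eomes averaged 2284 in Ca-free, 3572 after 20 pulses and 3725 in control, Gata4 127 in Ca-free, 173 after 20 pulses and 222 in control, and Sox17 659 in Ca-free, 1289 after 20 pulses and 629.9 in control. Controls 3 and 4 had Actb 3'/5' signal ratios, a measure of RNA length, of 2.69 and 2.64, while the other 10 arrays had 1.49 to 1.88. The Gapdh 3'/5' ratios were 5.05, 3.10, 2.89 and 4.73 in Ca-free, against 5.70 to 7.58 after 20 pulses and 5.76 to 8.90 in control, so that all 4 Ca-free arrays were below the other 8. The part of these array differences in the results below was not tested. In whole embryos, fewer cells of a type and less RNA per cell cannot be told apart.

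**Figure D1:**
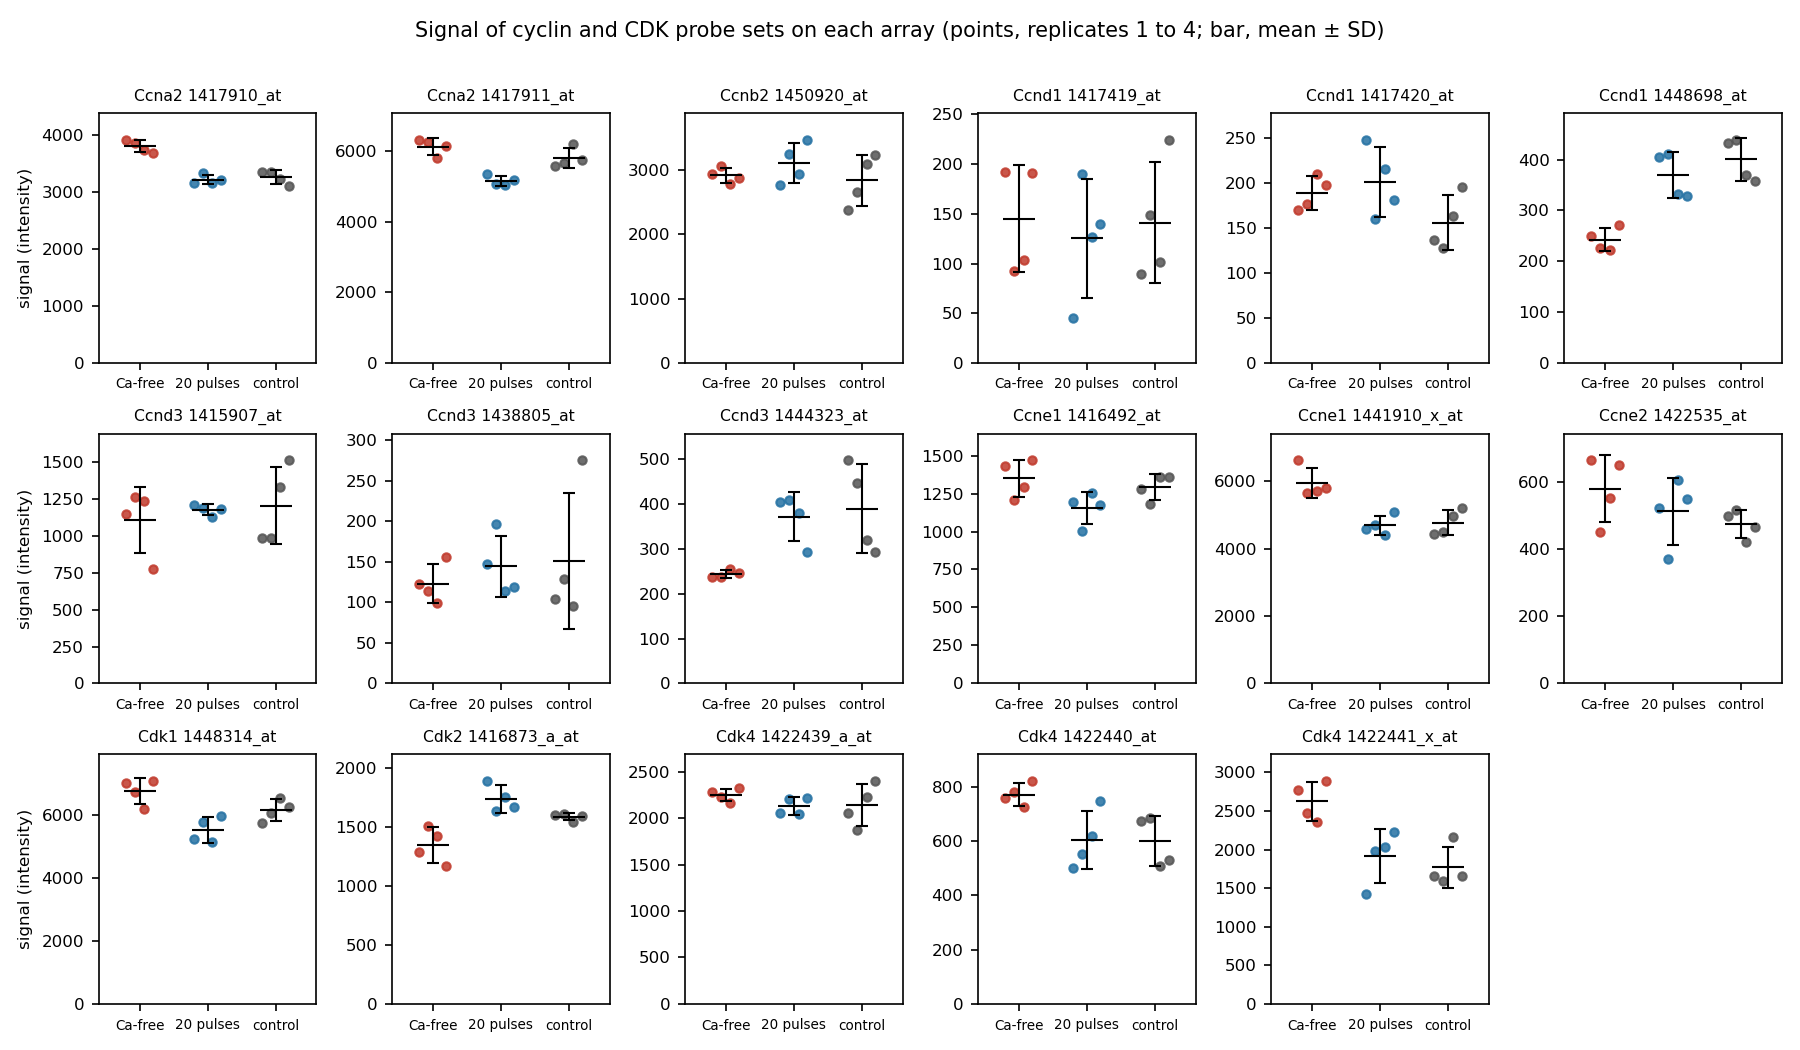
Signal (rescaled intensity, each vertical axis from 0) of the 17 tested cyclin and CDK probe sets on the 12 arrays. Points are arrays in 3 groups from left to right, Ca-free, 20 pulses and control, and bars give mean ± SD (n = 4). Ccnd1 1448698_at lies lower on all 4 Ca-free arrays (221 to 272) than on the other 8 (328 to 439), and Cdk4 1422441_x_at lies higher (2355 to 2892, against 1422 to 2225).

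Among the G1 members, Ccnd1 encodes cyclin D1, the D-type cyclin induced by growth factor signals in many cells. Its probe set 1448698_at had 250.5, 227, 221 and 272 signal units in Ca-free blastocysts, 405, 411, 333 and 328 after 20 pulses and 433, 439, 371 and 358 in control. All 4 Ca-free arrays were below every other array, and the 20 pulses and control arrays overlapped. The means were 243 ± 23.3 in Ca-free, 369 ± 44.8 after 20 pulses and 400.3 ± 41.8 in control (SD, n = 4 each). The log2 change in Ca-free against control was -0.65 (SE 0.11, 95% interval -0.89 to -0.41), with an adjusted p of 0.000934 by limma. This was the only one of the 17 probe sets called the same way under all 4 scalings of the arrays, and it was called in each of 22 alternative analyses, with changes of -0.90 to -0.28. Probe sets of similar brightness (class 6) had a median change of -0.24.

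The other 2 Ccnd1 probe sets did not share that fall. 1417420_at had 169.6, 177, 210.0 and 198 in Ca-free, 248, 159.6, 215 and 181 after 20 pulses and 136, 127, 163 and 195 in control, with a log2 change of 0.24 (adjusted p = 0.21). 1417419_at ranged from 93.0 to 192 in Ca-free, from 45.6 to 190.0 after 20 pulses and from 89.4 to 225 in control, with a change of 0.04 (adjusted p = 0.925). Their groups overlapped, and 1417420_at was called higher under quantile normalization (0.57, adjusted p = 0.0174) and under median scaling (0.59, adjusted p = 0.00500). At an equal trimmed mean 1 of the 3 Ccnd1 probe sets thus passed.

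Ccnd3, encoding cyclin D3, was brightest on 1415907_at, which had 1152, 1266, 1239.8 and 776 in Ca-free, 1212, 1187, 1125 and 1185 after 20 pulses and 986, 987, 1333 and 1513 in control. Ca-free array 4 was the lowest of the 12 and controls 3 and 4 the highest, and the groups overlapped (log2 change -0.12, 95% interval -0.44 to 0.21, adjusted p = 0.557). It was called lower when arrays were scaled to the hybridization controls, described below (-0.40, adjusted p = 0.0290). A second probe set, 1444323_at, fell to 244 ± 8.54 in Ca-free, against 389 ± 98.8 in control (SD, n = 4 each), a log2 change of -0.58 (95% interval -0.90 to -0.26, adjusted p = 0.00831). Its arrays had 237, 238, 255 and 247 in Ca-free, 405, 409, 381 and 293 after 20 pulses and 497, 447, 321 and 292 in control. The Ca-free arrays were nearly equal to each other and below all others, with controls 3 and 4 and 20 pulses array 4 nearest to them. The fall was -0.29 (adjusted p = 0.138) against controls 3 and 4 alone, -0.32 (adjusted p = 0.135) under quantile normalization and -0.21 (adjusted p = 0.234) under median scaling. The third, 1438805_at, had 122, 114, 99.8 and 156 in Ca-free, 148, 196, 115 and 119 after 20 pulses and 104, 129, 96.1 and 275 in control and did not pass (-0.16, adjusted p = 0.637).

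Cdk4, the kinase partner of the D-type cyclins, was higher in Ca-free blastocysts on 2 of its 3 probe sets. 1422441_x_at, whose _x suffix marks probes that can also bind other transcripts, had 2772, 2478, 2355 and 2892 in Ca-free, 1422, 1982, 2035 and 2225 after 20 pulses and 1663, 1593, 2168 and 1661 in control. The lowest Ca-free array was above the highest array of either other group. The rise to 2624 ± 249.8 in Ca-free, against 1771 ± 267 in control (SD, n = 4 each), was 0.56 on the log2 scale (95% interval 0.29 to 0.84, adjusted p = 0.00397), a 1.48-fold change. It was 0.46 against controls 3 and 4 alone (adjusted p = 0.0531) and 0.28 when arrays were scaled to the hybridization controls, RNAs added in known amounts (adjusted p = 0.0810).

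1422440_at had 757, 781, 724 and 822 in Ca-free, 499, 551, 618 and 747 after 20 pulses and 672, 684, 509 and 531 in control. The Ca-free arrays were above every control array, and 20 pulses array 4 lay within the Ca-free range. The change was 0.36 (95% interval 0.09 to 0.62, adjusted p = 0.0333). This call was lost on leaving out Ca-free array 1, 2 or 4 (0.37, 0.35 and 0.33) or control 3 or 4 (0.29 and 0.31), against controls 1 and 2 alone (0.18) and with hybridization control scaling (0.08). The third Cdk4 probe set, 1422439_a_at, had a change of 0.07 (95% interval -0.09 to 0.23, adjusted p = 0.442), with 2277, 2223, 2165 and 2322 in Ca-free, 2051, 2208, 2045 and 2219.8 after 20 pulses and 2057, 1874, 2229.7 and 2401 in control. Under median scaling that probe set was called higher (0.48, adjusted p = 0.000762).

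Of the S-phase members, Ccne1 (cyclin E1) was higher in Ca-free blastocysts on 1 of 2 probe sets, which also has the _x suffix. 1441910_x_at had 6620.4, 5662, 5703 and 5797 in Ca-free, 4579.6, 4709.7, 4416 and 5075 after 20 pulses and 4435, 4491, 4953 and 5203 in control. All Ca-free arrays were above all others, Ca-free array 1 by the widest margin. The change was 0.32 (95% interval 0.17 to 0.46, adjusted p = 0.00329), beside a median of 0.12 over all probe sets of its brightness class. Without Ca-free array 1 it was 0.26 and still called, and it did not pass against controls 3 and 4 alone (0.22, adjusted p = 0.0527), under quantile normalization (0.17, adjusted p = 0.0691) or with hybridization control scaling (0.03, adjusted p = 0.744). The second Ccne1 probe set, 1416492_at, had 1434, 1206, 1291 and 1469 in Ca-free, 1192, 1001, 1250.2 and 1175 after 20 pulses and 1283, 1179.6, 1357 and 1358 in control, with overlapping groups (0.06, adjusted p = 0.628). Under median scaling it was called higher (0.46, adjusted p = 0.00145).

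Ccne2, the second E-type cyclin, had a single probe set with 663, 449, 551 and 650.3 in Ca-free, 523, 371, 605 and 547 after 20 pulses and 497, 514, 420.4 and 466 in control. Ca-free arrays 1 and 4 were high and array 2 was within the control range, and the change did not pass (0.26, 95% interval -0.05 to 0.57, adjusted p = 0.166). With Ca-free arrays 1 and 4 alone it was 0.45 (adjusted p = 0.0425), and under median scaling of all arrays 0.65 (adjusted p = 0.00197).

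Cdk2, the partner of cyclins E and A, was lower in Ca-free blastocysts on its 1 tested probe set, 1416873_a_at. The arrays had 1287, 1510.0, 1427 and 1169 in Ca-free, 1891, 1632, 1753 and 1671 after 20 pulses and 1604, 1613, 1539 and 1596 in control. The Ca-free arrays were the 4 lowest of the 12, and the 4 from 20 pulses the 4 highest. Means were 1348 ± 151 in Ca-free, 1737 ± 115 after 20 pulses and 1588 ± 33.2 in control (SD, n = 4 each), with a change of -0.24 in Ca-free against control (95% interval -0.41 to -0.06, adjusted p = 0.0319). This call was lost on leaving out Ca-free array 1 (-0.22) or 4 (-0.17) or control 1 (-0.23), 2 (-0.23) or 4 (-0.23), and with Ca-free arrays 2 and 3 alone it was -0.11 (adjusted p = 0.290). Under median scaling the sign turned (0.17, adjusted p = 0.130).

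Among the members of S phase, G2 and mitosis, Ccna2, the cyclin A of dividing somatic cells and embryos, had 2 probe sets, of which 1 passed. 1417910_at had 3924, 3864, 3742 and 3699 in Ca-free, 3170.2, 3333, 3167 and 3215 after 20 pulses and 3361, 3356, 3227 and 3106 in control. The Ca-free arrays were above all others and the change was 0.22 (95% interval 0.11 to 0.33, adjusted p = 0.00485), beside a median of 0.12 in its brightness class. It was 0.07 (adjusted p = 0.362) under quantile normalization and -0.06 (adjusted p = 0.493) with hybridization control scaling. 1417911_at had 6315, 6238, 5793 and 6146 in Ca-free, 5353, 5065, 5025 and 5169 after 20 pulses and 5569.9, 5659, 6196 and 5738 in control, and its Ca-free and control arrays overlapped (0.08, adjusted p = 0.213). It was called higher under median scaling (0.49, adjusted p = 1.7e-05) and lower with hybridization control scaling (-0.21, adjusted p = 0.0268).

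Cdk1, the mitotic kinase, had 7014, 6726, 6202 and 7082 in Ca-free, 5219, 5764, 5135 and 5962 after 20 pulses and 5754, 6056, 6550.4 and 6260.0 in control. Ca-free array 3 lay within the control range, and the change of 0.13 did not pass (95% interval -0.00 to 0.27, adjusted p = 0.105). Without Ca-free array 3 it was 0.17 (adjusted p = 0.0444). Under median scaling Cdk1 was called higher (0.54, adjusted p = 8.4e-05). Ccnb2, a B-type cyclin that binds Cdk1, had 2945, 3058, 2786 and 2880.4 in Ca-free, 2761, 3256, 2944 and 3471 after 20 pulses and 2383, 2655, 3091 and 3236 in control. Its controls spread over a wider range than the Ca-free arrays and contained all of them (0.05, 95% interval -0.15 to 0.25, adjusted p = 0.709). Ccnb2 was called higher under median scaling (0.46, adjusted p = 0.00563) and lower with hybridization control scaling (-0.24, adjusted p = 0.0404).

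The 250 bases before the transcription start of the kinases and of 2 of their cyclins are shown so that the short motifs of their promoters can be set side by side. The sequences are from RefSeq (GRCm38.p6), where 7 of the 10 genes had an entry. Capitals mark matches, on either strand, to CCAAT (bound by the factor NF-Y), TTTGAA (an element of cell cycle promoters), GGGCGG (bound by Sp1) and TTTNGCGC (a form of the E2F site), and no matches overlap. Over 32851 RefSeq windows of 250 bases, 33.8% held CCAAT, 16.0% TTTGAA, 32.7% GGGCGG and 1.13% TTTNGCGC.
Cdk1 (chr10:69352913-69353162, minus strand): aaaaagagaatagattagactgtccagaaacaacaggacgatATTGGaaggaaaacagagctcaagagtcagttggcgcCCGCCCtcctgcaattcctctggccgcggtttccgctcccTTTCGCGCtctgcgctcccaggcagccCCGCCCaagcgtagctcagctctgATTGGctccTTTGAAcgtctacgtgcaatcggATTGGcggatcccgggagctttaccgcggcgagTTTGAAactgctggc
Ccnb2 (chr9:70421555-70421804, minus strand): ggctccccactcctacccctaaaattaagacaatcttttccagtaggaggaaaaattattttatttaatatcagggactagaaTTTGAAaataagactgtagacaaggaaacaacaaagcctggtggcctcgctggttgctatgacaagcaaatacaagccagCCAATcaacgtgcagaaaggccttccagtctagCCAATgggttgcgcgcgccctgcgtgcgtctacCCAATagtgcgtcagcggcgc
Cdk2 (chr10:128705052-128705301, minus strand): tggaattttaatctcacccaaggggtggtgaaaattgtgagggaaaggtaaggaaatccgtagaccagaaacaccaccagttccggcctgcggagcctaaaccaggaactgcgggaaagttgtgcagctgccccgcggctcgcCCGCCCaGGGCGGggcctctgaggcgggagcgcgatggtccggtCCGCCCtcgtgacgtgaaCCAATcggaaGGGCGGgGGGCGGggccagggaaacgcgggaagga
Ccne1 (chr7:38107491-38107740, minus strand): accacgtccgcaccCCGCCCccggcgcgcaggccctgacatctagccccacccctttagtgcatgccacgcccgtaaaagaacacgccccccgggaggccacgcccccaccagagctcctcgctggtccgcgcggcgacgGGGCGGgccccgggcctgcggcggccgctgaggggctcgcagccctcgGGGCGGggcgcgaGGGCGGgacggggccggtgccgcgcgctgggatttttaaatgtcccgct
Cdk4 (chr10:127063285-127063534, plus strand): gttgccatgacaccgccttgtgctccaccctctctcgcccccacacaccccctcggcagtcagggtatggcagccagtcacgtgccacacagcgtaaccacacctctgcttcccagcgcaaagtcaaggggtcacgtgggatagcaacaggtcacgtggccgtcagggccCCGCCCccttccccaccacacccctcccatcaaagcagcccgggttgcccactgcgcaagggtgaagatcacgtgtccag

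The mitotic pair held 3 CCAAT matches each, whose first bases lay 208, 80 and 48 bases before the start in Cdk1 and 87, 54 and 21 in Ccnb2. TTTGAA lay at 71 and 15 in Cdk1 and at 167 in Ccnb2, and Cdk1 held the only TTTNGCGC match of these windows at 131. Cdk2 had 5 GGGCGG matches with CCAAT at 45, Ccne1 had 4 GGGCGG matches alone, and Cdk4 had 1, at 80. The Ccnd3 windows, also not shown, held 0 and 1 CCAAT matches and 2 and 1 GGGCGG matches. A match describes these letters and is no measure of binding.

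After 20 pulses no member probe set passed against control. Changes on the 17 probe sets lay between -0.17 (Ccnd1 1417419_at, adjusted p = 0.841) and 0.31 (Ccnd1 1417420_at, adjusted p = 0.338), with a median of -0.01 beside -0.03 over all tested probe sets. The 2 with an unadjusted p under 0.05 were Ccna2 1417911_at (-0.17, 95% interval -0.27 to -0.06, adjusted p = 0.117) and Cdk1 (-0.16, 95% interval -0.29 to -0.02, adjusted p = 0.238). All 4 arrays of Ccna2 1417911_at after 20 pulses were below the 4 controls, and those of Cdk2 were above them (0.12, adjusted p = 0.493). Such separation of the arrays was found for 11.0% of all tested probe sets. For Cdk4 1422441_x_at, which rose in Ca-free, the change after 20 pulses was 0.10 with a 95% interval of -0.17 to 0.38, and for Ccnd1 1448698_at it was -0.11 with -0.35 to 0.13.

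**Figure D2:**
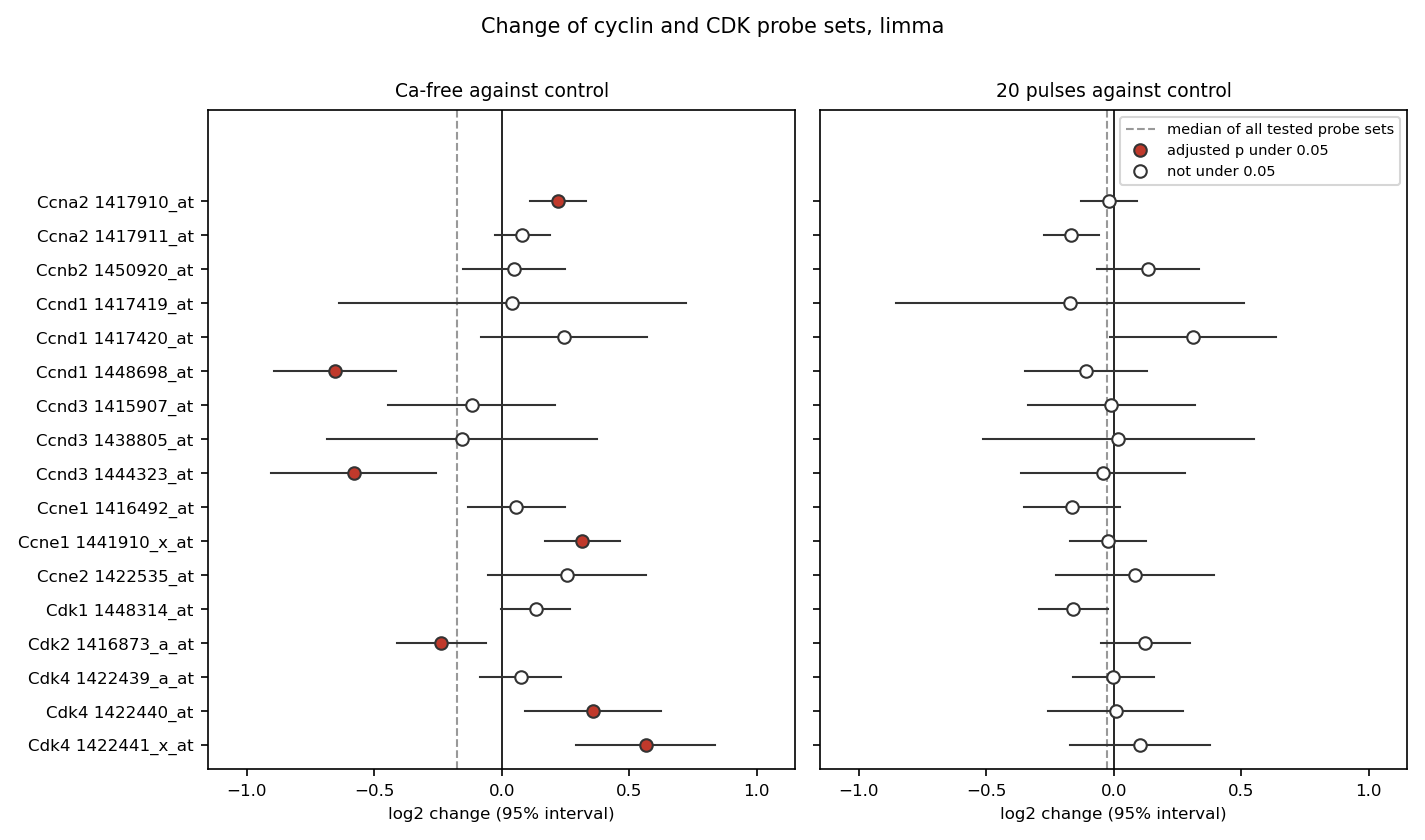
Log2 change with its 95% interval for the 17 tested probe sets, Ca-free against control on the left and 20 pulses against control on the right. Filled points have an adjusted p under 0.05 and the dashed line is the median of all tested probe sets (-0.18 and -0.03). Filled points lie on both sides of 0 on the left, and all points on the right are open.

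Set directly against 20 pulses, Ca-free blastocysts were higher on 6 of the 17 probe sets and lower on 3, where 32.6% of all tested probe sets were called, 9.22% higher and 23.4% lower. Both Ccna2 probe sets rose (0.24 for 1417910_at, adjusted p = 0.00487, and 0.25 for 1417911_at, adjusted p = 0.00372). Their brightness class, which also holds Cdk1 and Ccne1 1441910_x_at, had a median change of 0.17 against 20 pulses. Cdk1 rose by 0.29 (95% interval 0.16 to 0.43, adjusted p = 0.00503), and every Ca-free array was above every 20 pulses array. Arrays were apart without overlap for 31.5% of all tested probe sets in this comparison. Ccne1 1441910_x_at rose by 0.34 (adjusted p = 0.00372) and Cdk4 1422441_x_at by 0.46 (adjusted p = 0.0148), the latter beside a median of 0.06 in its brightness class.

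Cdk4 1422440_at rose by 0.35 (adjusted p = 0.0431), a call lost on leaving out any 1 of 7 of the 8 arrays (0.27 to 0.38), all but 20 pulses array 4. The decreases were Ccnd1 1448698_at (-0.54, adjusted p = 0.00387), Ccnd3 1444323_at (-0.54, adjusted p = 0.0155) and Cdk2 (-0.36, 95% interval -0.54 to -0.19, adjusted p = 0.00584). Median changes were -0.22 in the brightness class of the Ccnd1 and Ccnd3 probe sets and 0.06 in that of Cdk2. Ccne1 1416492_at missed the threshold (0.22, adjusted p = 0.0694) and passed it without Ca-free array 2 (0.27, adjusted p = 0.0430). Ccnb2 had a change of -0.09 (95% interval -0.29 to 0.11, adjusted p = 0.496).

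These directions against 20 pulses depended on the scaling. With hybridization control scaling both Ccna2 probe sets were called in the opposite direction, lower in Ca-free (-0.20, adjusted p = 0.0265 for 1417910_at, and -0.20, adjusted p = 0.0250 for 1417911_at). Under that scaling Cdk1 (-0.15), Ccne1 1441910_x_at (-0.11) and Cdk4 1422440_at (-0.08) turned sign without a call, and Cdk4 1422441_x_at was 0.02. After quantile normalization the 6 increases did not pass, at 0.11 and 0.08 for Ccna2, 0.11 for Cdk1, 0.18 for Ccne1 1441910_x_at and 0.42 and 0.38 for Cdk4 1422440_at and 1422441_x_at. Of the decreases, Cdk2 passed there (-0.40, adjusted p = 0.0105), and Ccnd1 1448698_at and Ccnd3 1444323_at did not (-0.29 each). Under median scaling the 6 increases passed and the decreases did not, with Ccnd1 1448698_at and Ccnd3 1444323_at at -0.20 each and Cdk2 at 0.0072.

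How far a member counts as changed depended on how the arrays were brought to a common scale. For Ca-free against control, the median change of all tested probe sets was -0.18 at an equal trimmed mean, -0.02 after quantile normalization, 0.20 at an equal median and -0.43 with hybridization control scaling. The members called higher and lower were 4 and 3 at an equal trimmed mean, 3 and 2 after quantile normalization, 11 and 1 at an equal median, and 0 and 6 with hybridization control scaling. Over all tested probe sets, 2944 were called higher and 8249 lower at an equal trimmed mean. The counts were 2738 and 2760 after quantile normalization, and 475 and 16423 with hybridization control scaling. Those at an equal median are not given here. Measured from each scaling's own median, 9 of the 17 lay above it under all 4 scalings and 3 below. The share of all tested probe sets that did so was not counted. In the order trimmed mean, quantile, median and hybridization controls, Cdk4 1422441_x_at was 0.74, 0.47, 0.77 and 0.71 above and Ccne1 1441910_x_at 0.49, 0.19, 0.53 and 0.46 above. Ccnd1 1448698_at was at -0.48, -0.37, -0.48 and -0.48, and Ccnd3 1444323_at at -0.40, -0.30, -0.41 and -0.40. Cdk2 was at -0.06, -0.28, -0.03 and -0.09, and after quantile normalization, where it lay farthest from the median, its change was called (adjusted p = 0.0231), while that of Ccnd3 1444323_at was not. Whole brightness classes also lay off the median of -0.18 at an equal trimmed mean. Class 10, with Ccne1 1441910_x_at, had a median change of 0.12, and class 9, with Cdk4 1422441_x_at and Cdk2, of 0.095. Class 6, with the Ccnd1 and Ccnd3 probe sets just named, had -0.24. For Ca-free against 20 pulses, 6 and 3 members were called higher and lower at an equal trimmed mean, 0 and 1 after quantile normalization, 9 and 0 at an equal median, and 0 and 9 with hybridization control scaling. All tested probe sets called there were 2565 higher and 6505 lower at an equal trimmed mean. They were 1415 and 1386 after quantile normalization, and 54 and 22169 with hybridization control scaling. For 20 pulses against control, 0 members were called under any of the 4 scalings (limma, with 2 at an unadjusted p under 0.05 at an equal trimmed mean).

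**Figure D3:**
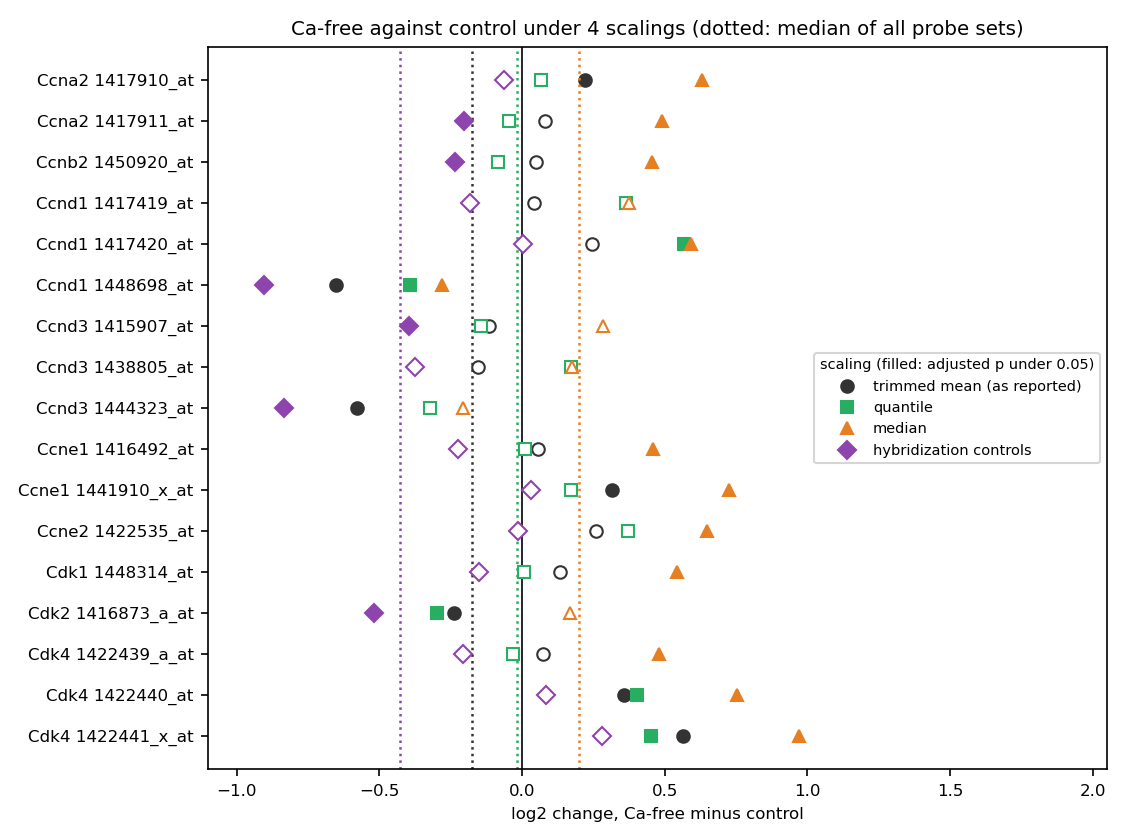
Log2 change in Ca-free against control for the 17 probe sets under 4 scalings of the arrays, with each scaling's median over all tested probe sets as a dotted line of the same colour. Filled symbols have an adjusted p under 0.05, and Ccnd1 1448698_at is the only probe set filled on the same side of 0 in all 4.

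Of 72 further genes that regulate or accompany these members, 66 had a testable probe set, and each was measured by its brightest. In Ca-free blastocysts 12 rose and 8 fell against control, with a median change of 0.07, where 12.3% of all genes measured this way rose and 28.8% fell, with a median of -0.13. These shares, here and below, are over genes of every brightness, and the brightness classes differed in their median change. After 20 pulses 1 rose and 0 fell, where 0.750% of genes rose and 0.331% fell. At an unadjusted p under 0.05 there were 8 of the 66, beside 2081 of 13599 genes.

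Of 9 tested genes of the CDK-activating kinase, the CDK phosphatases and the CDK-inhibiting kinases, 4 rose, 1 fell and 4 were not called. Over all genes 12.3% rose and 28.8% fell. Those not called included Mnat1, of the CDK-activating kinase (0.24, adjusted p = 0.0866), and Cdc25b, a phosphatase (-0.07, adjusted p = 0.642). Cdk7 and Ccnh, the kinase and cyclin of the CDK-activating kinase, had 1994 ± 116 and 8512 ± 327 in Ca-free, against 1584 ± 89.2 and 7291 ± 151 in control (log2 changes 0.33 and 0.22, adjusted p = 0.00494 and 0.00166). Cdc25c and Cdc25a, phosphatases that remove inhibitory phosphates from CDKs, rose by 0.48 (adjusted p = 0.00853) and 0.20 (adjusted p = 0.0148). These calls are those of the brightest probe sets: of the other tested probe sets, 4 of Cdk7, 2 of Ccnh and 1 each of Cdc25c and Cdc25a, 0 were called. Wee1, the kinase that adds such phosphates, was the decrease of this list of 9, at 1173 ± 108 in Ca-free and 1476 ± 149 in control (-0.32, adjusted p = 0.0299). The Wee1 call was lost without Ca-free array 3 (-0.28) or 4 (-0.29) or control 1 (-0.27) or 2 (-0.32), and its 1 other tested probe set was not called. With hybridization control scaling Cdk7 (0.04) and Cdc25c (0.21) did not pass and Ccnh (-0.06) and Cdc25a (-0.09) turned sign, and under median scaling Wee1 turned sign (0.08). After quantile normalization Cdc25a did not pass (0.04, adjusted p = 0.636). Ccnh and Cdc25a were in class 10, the brightest, whose median change was 0.12.

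Cdc25a was also the 1 regulator that rose after 20 pulses, to 3862 ± 261, against 3133 ± 18.2 in control (log2 change 0.30, adjusted p = 0.0229). It was called under all 4 scalings, and the call was lost without 20 pulses array 2 (0.26, adjusted p = 0.0672) or 3 (0.31, adjusted p = 0.0571) or control 3 (0.30, adjusted p = 0.0647). The call was also lost in limma without an intensity trend (adjusted p = 0.0834) and against controls 1 and 2 alone (0.30, adjusted p = 0.0966). The 1 other tested Cdc25a probe set was not called.

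Of 9 tested cyclins and CDKs outside the 10, 1 rose, 1 fell and 7 were not called, where 12.3% of all genes rose and 28.8% fell. Ccnd2, the remaining D-type cyclin, fell to 156 ± 41.1 in Ca-free, against 308 ± 29.9 in control (-0.88, adjusted p = 0.00298), a change of -0.56 under quantile normalization (adjusted p = 0.0524). Of its 3 other tested probe sets 0 were called. Cdk16, a CDK of the PCTAIRE group, rose by 0.20 (adjusted p = 0.0092) on its brightest probe set, while 2 of its 3 others fell. It did not pass under quantile normalization (0.10, adjusted p = 0.127), and with hybridization control scaling its sign turned (-0.08). Of 7 tested CDK inhibitors 0 rose and 1 fell, where 12.3% of all genes rose and 28.8% fell. The decrease was Cdkn2a, whose p16 product inhibits Cdk4, with 82.3 ± 4.61 in Ca-free and 142 ± 19.7 in control (-0.60, adjusted p = 0.0144). It did not pass under quantile normalization (-0.28) or median scaling (-0.28), and its Ca-free mean was below the 100 required over the 12 arrays. Ccnd2 and Cdkn2a were dim, and the median change of all tested probe sets was -0.36 in class 1, the dimmest, and -0.37 in class 4.

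Of 17 tested Cks, Rb family and E2F genes with their partners, 0 rose and 4 fell, where 12.3% of all genes rose and 28.8% fell. Foxm1, a transcription factor that activates mitotic genes, fell to 372 ± 22.2 in Ca-free, against 627 ± 46.1 in control (-0.71, adjusted p = 0.000195), and was called in all 22 alternative analyses. These used the same probe set, and its 1 other tested probe set was not called. E2f4, an E2F that represses in resting cells, fell to 384 ± 38.9 in Ca-free, against 558 ± 39.6 in control (-0.51, adjusted p = 0.00127), and was -0.12 under median scaling. Tfdp2, an E2F partner, and Mybl2, a factor of the same promoters, changed by -0.25 (adjusted p = 0.0179) and -0.22 (adjusted p = 0.0204), and both turned sign under median scaling (0.15 and 0.19). Tfdp2 was lost without Ca-free array 1 (-0.22) and Mybl2 without control 4 (-0.17). Of the 2 other tested probe sets of Tfdp2 0 were called, and the 1 other of Mybl2 fell.

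Of 24 tested genes of the ubiquitin ligases that destroy cyclins, 7 rose and 1 fell, where 12.3% of all genes rose and 28.8% fell. Anapc1, the largest subunit of the anaphase-promoting complex, had 1699 ± 54.0 in Ca-free and 1176 ± 44.0 in control (0.52, adjusted p = 0.00036). It was called in all 22 alternative analyses, although 1 of its 3 other probe sets fell. Ube2c, the complex's ubiquitin-conjugating enzyme, rose by 0.47 (adjusted p = 0.000195), Cdc26, a small subunit, by 0.39 (adjusted p = 0.00236), and Skp1, an adaptor of the SCF ligases, by 0.29 (adjusted p = 0.00162). These last 3 did not pass with hybridization control scaling (0.19, 0.11 and 0.0034). The decrease was Fzr1, encoding the activator Cdh1, with 501 ± 30.8 in Ca-free and 669 ± 26.4 in control (-0.40, adjusted p = 0.00524, and -0.0057 under median scaling). By brightness, Skp1 was in class 10 (median change 0.12), Anapc1, Ube2c and Cdc26 in class 9 (0.095) and Fzr1 in class 7 (-0.11). Fzr1 and Wee1 were named after their values were seen.

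**Figure D4:**
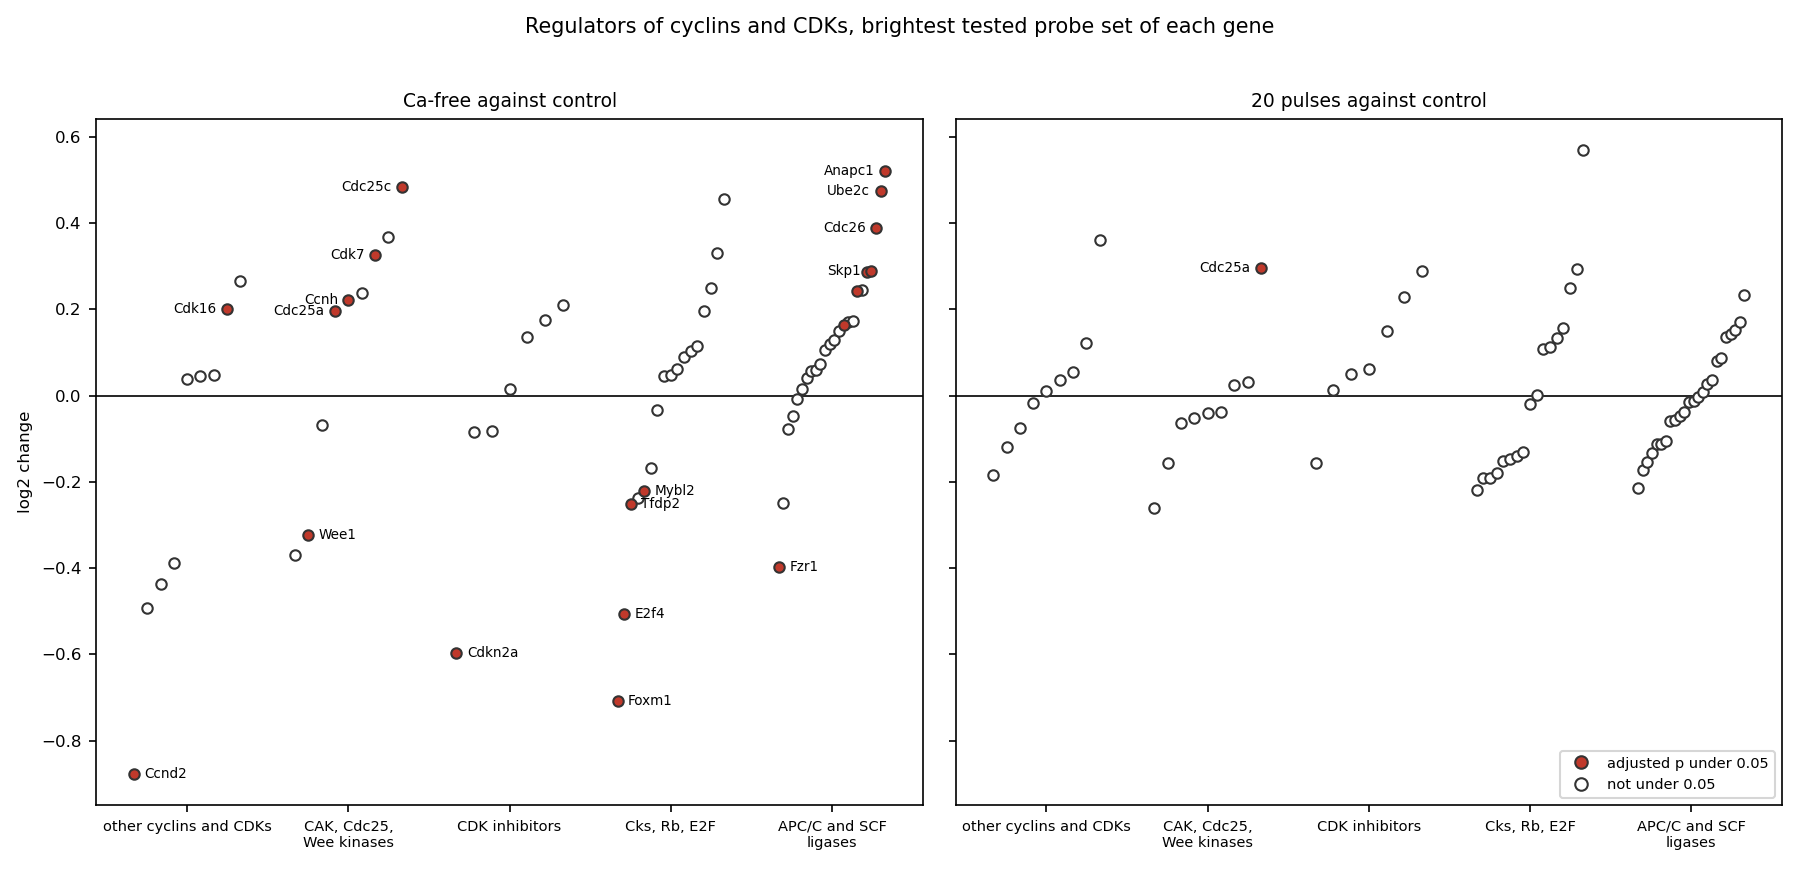
Log2 change of 66 regulator genes in 5 groups by function, Ca-free against control on the left and 20 pulses against control on the right, each gene by its brightest tested probe set. Filled points have an adjusted p under 0.05: 12 above 0 and 8 below on the left, and Cdc25a alone on the right.

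Across the 12 arrays, the gene most like each member's brightest probe set was found by Pearson's r of log2 values, as a description of arrays that share group and brightness differences. Cdk1 was nearest to Mapre1, which encodes the microtubule plus-end protein EB1 (r = 0.97), and Ccna2 1417911_at to Psma1, a proteasome subunit (r = 0.97). Both partners had their lowest mean after 20 pulses: Mapre1 had 6775 in Ca-free, 5541 after 20 pulses and 6184 in control, and Psma1 had 11298 in Ca-free, 9859 after 20 pulses and 10841 in control. Ccnd1 1448698_at was nearest to Pmp22, a membrane protein of myelin (r = 0.98), at 95.1 in Ca-free, 156 after 20 pulses and 168 in control. Cdk2 was nearest to Gatad2a, a subunit of the NuRD chromatin complex (r = 0.97), Ccne1 to Eif1ad (r = 0.95), Cdk4 1422439_a_at to Urod, an enzyme of haem synthesis (r = 0.95), Ccne2 to Sema3b (r = 0.94), Ccnd3 1415907_at to Fars2 (r = 0.92) and Ccnb2 to Ly6e (r = 0.89).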

How the data were processed

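The deposited table holds linear intensity values of 12 arrays, made by the authors with MAS5, per the submitters' processing notes (version not given), and scaled to an equal 2% trimmed mean. Each array was rescaled to a trimmed mean of 500 (a factor of 3.33), and 32 was added before log2. A mean of 100 signal units on the 12 arrays was required, and the 27808 probe sets that met it were tested with limma 3.58.1 in R 4.3.3 (lmFit, eBayes with an intensity trend, 3 group means, no pairing), with Benjamini-Hochberg adjustment over all of them and a threshold of 0.05. Precision is limited by the 4 arrays per group. The procedure was tested on simulated data.

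Members and lists were chosen with earlier results of these data known. All members are named; of each regulator list, at most the 4 called genes with the smallest p per comparison with control. Replicate numbers are shared by the groups, and the labels do not state a pairing. Same-numbered arrays shared little of their deviation (mean residual r 0.0156, from -0.058 to 0.101, against -0.0052 for other numbers). Still, 7 of 12 arrays correlated best with their own number. No pairing was used in the main model. Of single-gene probe sets, 34754 of 34958 matched RefSeq. Alternatives were scalings, added values, filters, the intensity trend, a replicate block, 8 arrays only, and left-out arrays.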

Additional observations from a re-analysis of the deposited data

Results flagged for a closer look

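Of 51 combinations of a member probe set and a group of 4 arrays, 2 held an array far from the other 3 by Dixon's criterion, which chance meets in about 1 in 20 groups. For Ccne1 1441910_x_at, Ca-free array 1 had a signal of 6620, with the other 3 Ca-free arrays at 5662 to 5797. For Cdk4 1422441_x_at, control 3 had a signal of 2168, with the other 3 controls at 1593 to 1663.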

How the results depend on the processing

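Counts of called probe sets or genes moved by over 1.5 times under some settings. With quantile normalization, Ca-free against control had 5498 probe sets (2738 higher, 2760 lower, against 2944 and 8249), and Ca-free against 20 pulses had 2801 probe sets, 1 member and 9 regulators. With median scaling, Ca-free against control had 12 members and 49 regulators, and against 20 pulses 40 regulators. With hybridization control scaling, Ca-free against control had 16898 probe sets (475 higher), 20 pulses against control had 1842 probe sets and 2 regulators, and Ca-free against 20 pulses had 22223 probe sets and 45 regulators. A minimum signal of 300 gave 5658 probe sets for Ca-free against control (2595 higher, 3063 lower) and 5080 against 20 pulses, with fewer probe sets tested. For 20 pulses against control, no intensity trend gave 155 probe sets and 0 regulators, controls 1 and 2 alone 203 and 0, and controls 3 and 4 alone 794 and 2. Controls 3 and 4 alone gave 6501 probe sets and 3 members in Ca-free against control. Ca-free arrays 2 and 3 alone gave 5859 probe sets and 5 members against 20 pulses. Leaving out 1 array gave 108 to 386 probe sets and 0 to 1 regulators for 20 pulses against control. A replicate block gave 227 probe sets there (10957 in Ca-free against control, with 7 members), and 7 of 12 arrays correlated best with their own number. Among single probe sets, median scaling turned the sign of Cdk2 (0.17), Tfdp2 (0.15), Mybl2 (0.19) and Wee1 (0.080) against control and of Cdk2 against 20 pulses (0.0072). Hybridization control scaling turned Ccna2 1417910_at (-0.064), Ccna2 1417911_at (-0.21, called lower), Ccnb2 (-0.24, called lower), Cdk16 (-0.085), Ccnh (-0.064) and Cdc25a (-0.088) against control. Against 20 pulses it turned both Ccna2 probe sets (-0.20 each, called lower), Ccne1 1441910_x_at (-0.11), Cdk1 (-0.15), Cdk4 1422439_a_at (-0.36, called lower) and Cdk4 1422440_at (-0.075). Sign changes of values called under neither setting are not listed. Apart from fewer arrays or probe sets, the cause was not tested.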
